A study of Mus musculus with 8 samples.

Results

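The insulin-like growth factor (IGF) axis was followed in sorted cardiac mesenchymal stromal cells (cMSCs), the CD45- CD31- Sca-1+ PDGFRα+ cells of the heart ventricles. Its members were taken as 10 genes by name, Igf1, Igf1r, Insr, Igfbp2, Igfbp3, Igfbp4, Igfbp5, Igfbp6, Igfbp7 and Pappa. On the arrays 19 of 56605 probes carried these names, out of 37074 gene names in all. Aged cMSCs came from male C57Bl/6 mice of 20 months (4 pools) and young cMSCs from male C57Bl/6 mice of 5 months (4 pools). According to the series' design each pool held cells of 3 mice, and the pool code of aged replicate 4 can also be read as 2 mice. The sample labels name no allele or treatment, so age was the comparison. The paper's aging study also used Cx3cr1 reporter mice, and its text does not say whether any entered these pools. One array was hybridised for each pool, and all 8 arrays lay on 1 slide. A value therefore averages several animals, and a change in the share of a cMSC subset cannot be told apart from a change of RNA level per cell.

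IGF-1 is a secreted growth factor that stromal cells release and that acts through the tyrosine kinase receptor IGF1R, which can also pair with the closely related insulin receptor. In the extracellular space IGF-1 is held by IGF-binding proteins, which prolong its life and restrict its access to the receptor, and proteases such as PAPP-A cut these proteins and free the ligand. Several of the binding proteins are also known as secreted products of senescent cells, and reduced IGF signalling is tied to longer life in mice.

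Of the 19 probes, 3 are printed here because they read coding sequence of a receptor and of 2 binding proteins, and thus show which part of the message a value comes from. The sequences are the 60-base probes of the array design, 5′ to 3′ in the sense of the message. Capitals mark the stop codon that ends the Igfbp2 probe, and in the other probes the first complete codon of the only reading frame with no stop.
Insr (chr8:3159473-3159532, minus strand): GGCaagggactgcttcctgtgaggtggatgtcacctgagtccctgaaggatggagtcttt
Igfbp2 (chr1:72898677-72898736, plus strand): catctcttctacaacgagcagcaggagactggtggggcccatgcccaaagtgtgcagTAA
Igfbp4 (chr11:98909591-98909650, plus strand): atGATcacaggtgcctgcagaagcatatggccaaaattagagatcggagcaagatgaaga
Positions are on mm9, as the file headers give them. The Igfbp2 probe is the sole probe of its gene. The Insr probe lies in the part of the message that encodes the tyrosine kinase, and it was above background on 2 of the 4 aged and 2 of the 4 young arrays. For Insr and Igfbp4 a brighter probe further towards the 3′ end represented the gene. No annotation of mm9 was used here, so exons, introns and untranslated regions were not assigned to the other probes.

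No member of the axis passed the test in either direction. Each level below is a log2 signal from which the array's own 75th percentile was subtracted. They compare pools for 1 probe and do not rank genes, since probes differ in brightness. The limma test, adjusted by Benjamini-Hochberg over 20226 genes, called 0 of 10 members higher and 0 of 10 lower in aged cMSCs at an adjusted p under 0.05. Of all genes tested, 2.46% rose and 0.791% fell. At an unadjusted p under 0.05 the count of members was also 0, against 14.1% of all genes. In 0 of 19 member probes did the 4 aged pools all lie above or all below the 4 young pools. Of all genes, 6.85% had every aged pool above and 3.84% every aged pool below. The exact permutation test over 4 against 4 pools cannot give a two-sided p under 0.0286.

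**Figure D1:**
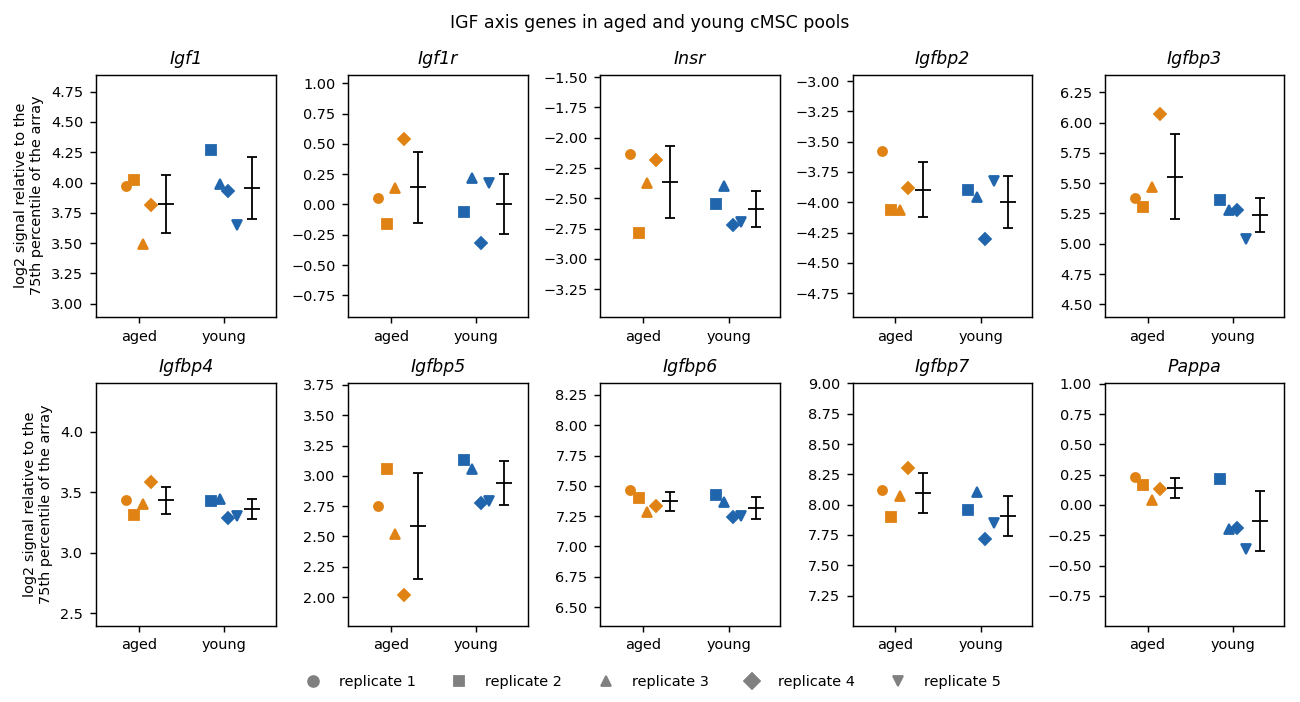
Log2 signal relative to the array's 75th percentile (vertical axes, each spanning the same range) of the 10 IGF axis genes in the aged and young pools. Symbols are single pools, coded by replicate number, and the bars are mean ± SD (n = 4 each). In every panel the aged and young pools overlap, and Igfbp3, Igfbp5 and Pappa come closest to separate groups.

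The ligand Igf1 was read above background in every pool. Its main probe, at chr10:87393516-87393575, gave 3.97, 4.02, 3.49 and 3.81 in aged pools 1 to 4, against 4.27, 3.99, 3.93 and 3.65 in young pools 2 to 5. Of the aged pools 3 lay within the young range, while aged replicate 3 was the lowest of the 8 pools and young replicate 2 the highest. The difference between aged and young was -0.13 ± 0.16 (SE), with a 95% interval of -0.50 to 0.23 and a limma adjusted p of 0.835. It was -0.0216 without aged replicate 3, -0.0288 without young replicate 2 and -0.237 without young replicate 5. Another probe, of a RefSeq transcript, at chr10:87378456-87378515, averaged 0.51 ± 0.08 in aged and 0.51 ± 0.25 in young cMSCs (SD, n = 4 each). A further probe, at chr10:87325382-87325441, rests on a cDNA clone in place of a RefSeq transcript and averaged -2.64 ± 0.50 in aged and -2.87 ± 0.40 in young cMSCs. Its difference of 0.23 had the opposite sign to that of the main probe, and neither difference exceeded the spread between pools (probe-level limma adjusted p = 0.837 for both).

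Both receptors read above background in every pool, and their groups overlapped. Igf1r, the receptor that carries most of the IGF-1 signal, gave 0.05, -0.16, 0.14 and 0.54 in aged pools 1 to 4, against -0.06, 0.22, -0.32 and 0.18 in young pools 2 to 5 at chr7:75371556-75371615. Aged replicate 4 was the highest of the 8 pools and young replicate 4 the lowest. The difference was 0.14 ± 0.17 (95% interval -0.26 to 0.53, limma adjusted p = 0.846), and without aged replicate 4 it was 0.0055. It was also 0.0303 without young replicate 4, 0.241 without aged replicate 2 and 0.21 without young replicate 3.

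The 4 Igf1r probes did not share a sign. One that lies beside the main probe, at chr7:75371371-75371430, averaged -0.95 ± 0.17 in aged and -0.76 ± 0.47 in young cMSCs, a difference of -0.19. In it young replicate 5, at -1.46, stood well below the other young pools, which lay between -0.61 and -0.48. The other two, at chr7:75332515-75332574 and chr7:75332796-75332855, rest on cDNA clones and differed by 0.26 and 0.20 between aged and young cMSCs. None of the 4 passed the test over probes.

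The insulin receptor Insr gave -2.13, -2.79, -2.38 and -2.18 in aged pools 1 to 4, against -2.54, -2.40, -2.72 and -2.69 in young pools 2 to 5 at chr8:3155472-3155531. Of the aged pools 3 lay above every young pool, while aged replicate 2 was the lowest of the 8. The difference was 0.22 ± 0.15 (95% interval -0.13 to 0.57, limma adjusted p = 0.641). It was 0.141 without aged replicate 1 and 0.358 without aged replicate 2 (adjusted p = 0.181). The coding probe shown above averaged -4.58 ± 0.50 in aged and -4.88 ± 0.56 in young cMSCs and was too dim to enter the test.

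Among the binding proteins the widest differences were those of Igfbp5 and Igfbp3, in opposite directions. Igfbp3, the main carrier of IGF-1 in blood, gave 5.38, 5.30, 5.47 and 6.07 in aged pools 1 to 4, against 5.36, 5.28, 5.28 and 5.04 in young pools 2 to 5 at chr11:7106193-7106252. All aged pools but replicate 2 lay above every young pool, and aged replicate 4 was the highest of the 8. The difference was 0.32 ± 0.17 (95% interval -0.07 to 0.71, limma adjusted p = 0.487). Without aged replicate 4 it was 0.14. A dimmer probe on a separate Ensembl transcript, above background on 4 aged and 3 young arrays, averaged -4.64 ± 0.26 in aged and -4.76 ± 0.35 in young cMSCs.

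Igfbp5, which binds the extracellular matrix and is abundant in stromal cells, gave 2.75, 3.06, 2.52 and 2.02 in aged pools 1 to 4, against 3.13, 3.06, 2.78 and 2.79 in young pools 2 to 5 at chr1:72904829-72904888. Aged replicates 1, 3 and 4 lay below every young pool, and aged replicate 2 lay among them. The difference was -0.35 ± 0.21 (95% interval -0.83 to 0.12, limma adjusted p = 0.545), and -0.16 without aged replicate 4. A second probe, at chr1:72904506-72904552, differed by -0.35 as well, with -2.20 ± 0.54 in aged and -1.85 ± 0.15 in young cMSCs. In both probes aged replicates 3 and 4 were the lowest pools. The SD of the aged pools was wider than that of the young pools in both probes, 0.44 against 0.18 and 0.54 against 0.15, a difference in spread that was not tested.

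Igfbp2 gave -3.58, -4.06, -4.06 and -3.88 in aged pools 1 to 4, against -3.90, -3.96, -4.31 and -3.82 in young pools 2 to 5. This binding protein is also known as a marker of insulin sensitivity in blood, and its stop-codon probe lies on the same chromosome within a few kilobases of the Igfbp5 probes. Aged replicate 1 was the highest pool and young replicate 4 the lowest. The difference was 0.10 ± 0.14 (95% interval -0.23 to 0.43, limma adjusted p = 0.868), and it ran between -0.00541 and 0.159 when single pools were left out. With normexp background correction it was 0.0228. The probe was dim, at percentile 8.99 of the mean levels of all genes tested.

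Igfbp4, the classical substrate of PAPP-A, had one of the narrowest spreads. It gave 3.43, 3.31, 3.40 and 3.58 in aged pools 1 to 4, against 3.43, 3.44, 3.29 and 3.30 in young pools 2 to 5 at chr11:98913334-98913393. Young replicates 2 and 3 lay among the aged pools, and young replicates 4 and 5 lay below all of them. The difference was 0.07 ± 0.085 (95% interval -0.12 to 0.26, limma adjusted p = 0.836). It was 0.0202 without aged replicate 4, 0.0443 without young replicate 4 and 0.11 without aged replicate 2. Its coding probe averaged 2.65 ± 0.12 in aged and 2.67 ± 0.12 in young cMSCs, a difference of -0.02.

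Igfbp6, which prefers IGF-2 over IGF-1, gave 7.47, 7.40, 7.28 and 7.34 in aged pools 1 to 4, against 7.43, 7.36, 7.24 and 7.25 in young pools 2 to 5 at chr15:101979852-101979911. Its 8 pools had the narrowest range of the 10 main probes, with aged replicate 1 the highest and young replicates 4 and 5 below every aged pool. The difference was 0.05 ± 0.08 (95% interval -0.13 to 0.23, limma adjusted p = 0.879), and it ran between 0.0193 and 0.0872 when single pools were left out.

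Igfbp7, a low-affinity IGF binder known as a secreted product of senescent cells, gave 8.12, 7.90, 8.07 and 8.30 in aged pools 1 to 4, against 7.96, 8.11, 7.71 and 7.84 in young pools 2 to 5 at chr5:77778355-77778414. Aged replicates 4 and 1 were the highest pools and young replicate 4 the lowest. The difference was 0.19 ± 0.12 (95% interval -0.07 to 0.46, limma adjusted p = 0.559), and 0.125 without aged replicate 4.

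The protease Pappa had the smallest p of the 10 members, with an unadjusted p of 0.0565 and an adjusted p of 0.375 in limma. It gave 0.23, 0.16, 0.04 and 0.13 in aged pools 1 to 4, against 0.21, -0.20, -0.19 and -0.36 in young pools 2 to 5 at chr4:65012905-65012964. Every aged pool lay above young replicates 3, 4 and 5, while young replicate 2 lay above 3 of the 4 aged pools. The difference was 0.27 ± 0.12, with a 95% interval of -0.0095 to 0.56. Leaving out single pools gave 0.198 without young replicate 5 at the lowest and 0.39 without young replicate 2 at the highest, where the adjusted p was 0.0928. With array weights it was 0.121 (adjusted p = 0.664) and with the replicate block 0.167 (adjusted p = 0.788). By the exact permutation test the two-sided p was 0.114. The genes whose deviations from the group means most resembled those of Pappa over the 8 arrays included Pmp22 (r = 0.97) and Tbccd1 (r = 0.97), picked from the highest values among all genes tested. These arrays share their scaling, and neither gene passed the age test (limma adjusted p = 0.761 and 0.908).

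**Figure D2:**
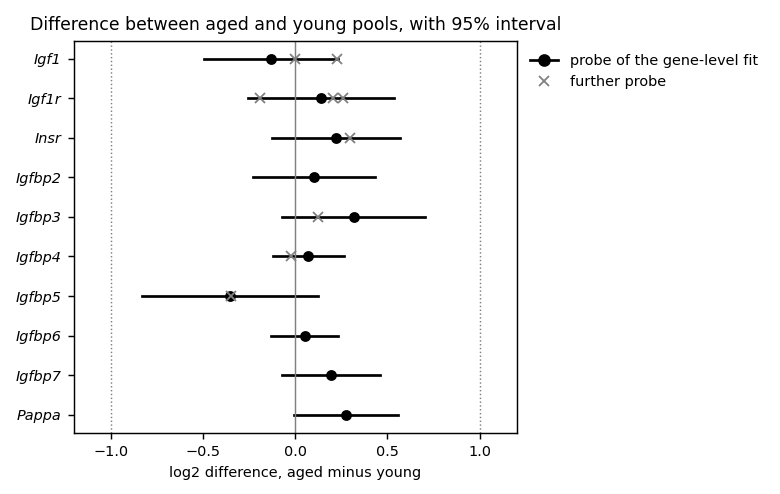
Log2 difference of aged minus young cMSCs (horizontal axis) for each IGF axis gene. Black points and lines are the estimate and 95% interval of the probe used for the gene (n = 4 pools each), grey crosses are its further probes, and dotted lines mark a 2-fold change. All 10 intervals include 0 and stay inside the dotted lines.

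The intervals also give a range for the difference between aged and young pools in the signal of 1 probe per member. All 10 lay within -1 to 1, so that a 2-fold change in either direction was outside the 95% interval of every member for its main probe. Igfbp2 was read by a dim probe, at 30.7 to 46.6 units before scaling. The Insr probe read 72.9 to 124 units, and its difference was 0.14 with normexp background correction against 0.22 in the main fit. How far dimness narrowed these differences was not tested. The widest excursions were -0.83 for Igfbp5 and 0.71 for Igfbp3. Over all genes, 91.1% had an interval within the same bounds. Of the members 8 had a higher mean in aged and 2 in young cMSCs, while 51.5% of all genes were higher in aged cMSCs. Of the 19 member probes 13 were higher in aged cMSCs. These signs are not independent, since the members' deviations from the group means correlated, from -0.72 (Igfbp3 and Igfbp5) to 0.95 (Igfbp4 and Igfbp7). A shared direction was not tested. The median difference was 0.12 over the members and 0.0056 over all genes.

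The pool that read highest differed between members. Aged replicate 4 was the highest of the 8 pools for Igf1r, Igfbp3, Igfbp4 and Igfbp7 and the lowest for Igfbp5. Aged replicate 1 was the highest for 4 other members, Insr, Igfbp2, Igfbp6 and Pappa. Young replicate 2 was the highest for Igf1 and Igfbp5, and young replicate 4 was the lowest for 5 members. Within the 4 arrays of the first row of the slide the differences of Igfbp3, Igfbp5 and Pappa were 0.57, -0.54 and 0.46, and within the 4 arrays of the second row they were 0.07, -0.17 and 0.09. Each row held 2 aged and 2 young arrays, and aged replicate 4 lay in the first. The sign of Igf1 differed between the rows, with 0.07 in the first and -0.34 in the second.

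**Figure D3:**
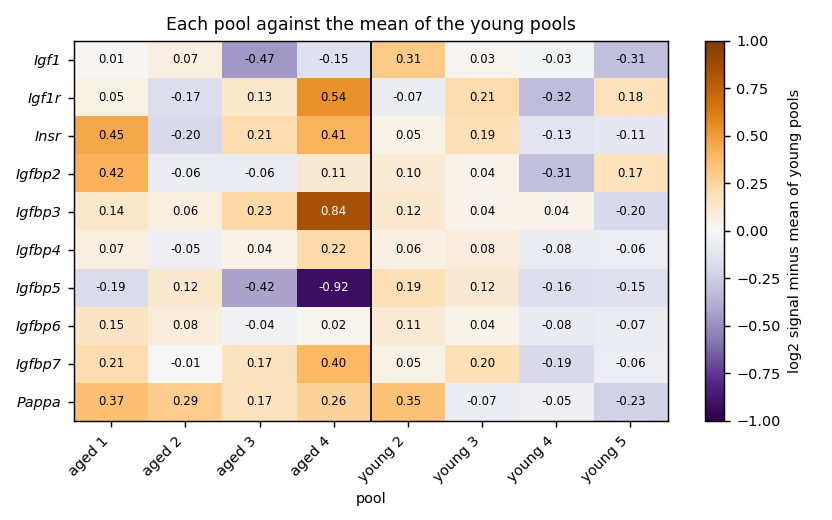
Log2 signal of each pool minus the mean of the 4 young pools, for the 10 IGF axis genes (rows) in the aged and young pools (columns). Aged replicate 4 holds the farthest values, 0.84 for Igfbp3 and -0.92 for Igfbp5.

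Markers of other cells were set beside these values. The sorting markers were present, with Ly6a (Sca-1) 0.67 higher in aged cMSCs (limma adjusted p = 0.0494) and Pdgfra at -0.20 without passing the test. Thy1 (CD90), which was not part of the sorting gate, was lower on the log2 scale (-0.71, adjusted p = 0.0491). Of the 15 cMSC and fibroblast markers tested, Ly6a and Thy1 alone passed. Col1a1, Col1a2 and Col3a1 did not pass, at -0.37, -0.36 and -0.38, each with every aged pool below every young pool. In linear signal, in units of the array's 75th percentile, the 15 markers summed to 2920 to 3694 in aged and 2802 to 3946 in young pools. Pecam1 (CD31) and Ptprc (CD45), against which the cells were sorted, were above background on all 8 arrays and differed by 0.03 and 0.07. Summed linear signals, each in units of the array's 75th percentile, of the tested endothelial markers (12 of 12) ranged over 23.8 to 38.1 in aged and 24.0 to 33.7 in young pools, and those of leukocyte and macrophage markers (12 of 14) over 33.2 to 49.4 in aged and 27.0 to 39.6 in young pools. In both lists aged replicate 4 was the highest of the 8 pools. Without Fabp4, which added most to the endothelial sum, the ranges were 12.6 to 20.2 in aged and 13.8 to 18.3 in young pools and aged replicate 2 was the highest. Without Itgam the leukocyte and macrophage sum was 8.69 to 13.1 in aged and 6.27 to 10.3 in young pools, still highest in aged replicate 4. Of this list Cd14 alone passed the test, 0.63 higher in aged cMSCs without overlap (limma adjusted p = 0.00412). Neutrophil markers (5 of 8) summed to 54.9 to 92.4 in aged and 62.7 to 87.6 in young pools, nearly all of it from Csf3r. The other 4, S100a8, S100a9, Ly6g and Camp, summed to 2.97 to 9.81 in aged and 1.28 to 1.91 in young pools, with no overlap and aged replicate 4 the highest, and all but S100a8 passed the test as higher in aged cMSCs. Cardiomyocyte markers (10 of 12) summed to 5.91 to 10.4 in aged and 10.8 to 13.5 in young pools, and without Myl2 to 4.09 to 7.60 in aged and 7.37 to 9.83 in young pools, both times lowest in aged replicate 4. Of these Tnni3 and Pln alone passed the test, at -0.32 and -0.90 (limma adjusted p = 0.0468 and 0.045). Smooth muscle and pericyte markers (10 of 10) summed to 26.9 to 31.6 in aged and 30.1 to 34.1 in young pools, lowest in the same pool. Mesothelial and epicardial markers (4 of 8) summed to 1.17 to 1.69 in aged and 0.315 to 0.509 in young pools. That separation rested on Dmkn, which rose by 3.98, and without it the sums overlapped, at 0.223 to 0.788 in aged and 0.241 to 0.457 in young pools. Of this list Upk3b, Krt8, Krt19 and Lrrn4 were too dim to test. Schwann cell markers (3 of 6) summed to 0.833 to 1.32 in aged and 0.972 to 1.24 in young pools. Dim markers also included Ryr2 and Ckm of the cardiomyocyte list and Ngp, Retnlg and Cxcr2 of the neutrophil list. The part of these cells in the values of Igf1r, Igfbp3, Igfbp4, Igfbp5 and Igfbp7 was not tested.

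Around the 10 members, 9 lists of the wider pathway held 104 genes, of which 93 were bright enough to be tested. Of these 3 rose and 1 fell in aged cMSCs, against 2.46% and 0.791% of all genes, and the median difference was -0.03. Insrr, Mmp3 and Bnip3 rose and Foxo6 fell.

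Ligands and receptors outside the members counted 1 riser among 4 tested. Insrr, an orphan relative of the insulin receptor that senses alkaline pH, gave -1.93, -1.15, -1.35 and -1.15 in aged pools 1 to 4, against -2.64, -2.25, -2.34 and -2.43 in young pools 2 to 5. The groups did not overlap, and the difference was 1.02 ± 0.18 (limma adjusted p = 0.0215). A second Insrr probe differed by 0.28, and the mean of both probes, at 0.65, did not pass (adjusted p = 0.0747). The call was lost without any single pool other than aged replicate 1 (adjusted p = 0.0532 to 0.0685).

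Igf2, the fetal IGF ligand, gave -3.29, -3.08, -2.98 and -2.54 in aged pools 1 to 4, against -2.28, -2.39, -2.46 and -2.44 in young pools 2 to 5. Every aged pool lay below every young pool, and aged replicate 4 lay nearest to the young pools. The difference of -0.58 ± 0.15 did not pass (limma adjusted p = 0.0829). It passed without aged replicate 4, at -0.73 (adjusted p = 0.0134), and in 3 of 21 alternative analyses in all. With normexp background correction it was -0.36 (adjusted p = 0.239), and with the authors' log2 values -0.44 (adjusted p = 0.0664). Igf2r, which clears IGF-2 from the cell surface, differed by -0.15 (adjusted p = 0.618), and Ins1 was too dim to be tested.

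Of the further binding proteins and carriers 3 of 6 were tested and 0 passed. Igfbp1, Igfals and Igfbpl1 were too dim, Igfbp1 on all 8 arrays. In the list of IGFBP proteases and their inhibitors 10 of 12 genes were tested, 1 rose and 0 fell. The riser was Mmp3, a matrix metalloprotease that also cuts IGF-binding proteins, with 5.02, 4.78, 4.90 and 5.27 in aged pools 1 to 4, against 3.93, 3.36, 3.83 and 3.65 in young pools 2 to 5. Its difference was 1.30 ± 0.15 (limma adjusted p = 0.00336), and it passed without each pool in turn. Mmp3 was known as changed in these samples when the lists were written, so its place in the list is no independent evidence. Pappa2, a relative of Pappa, differed by 0.22 (adjusted p = 0.867) with young replicate 5 far below the other pools. Stc2, a secreted inhibitor of PAPP-A, averaged 0.73 ± 0.18 in aged and 1.04 ± 0.20 in young cMSCs (SD, n = 4 each), a difference of -0.31 that did not pass (adjusted p = 0.332). Its relative Stc1 was above background on at most 1 array.

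The growth hormone arm had 8 of 10 genes tested and 0 called. Ghr, the growth hormone receptor, which drives Igf1 transcription, gave 3.14, 3.26, 3.19 and 3.36 in aged pools 1 to 4, against 2.93, 2.82, 3.01 and 2.69 in young pools 2 to 5. The groups did not overlap, but the difference of 0.38 ± 0.09 missed the threshold (limma adjusted p = 0.0745). All 4 Ghr probes were higher in aged cMSCs, by 0.17 to 0.38, but the groups overlapped in those at 0.17 and 0.21. With the mean of all kept probes the difference was 0.27 (limma adjusted p = 0.11).

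Downstream of the receptors, 0 of 19 tested adaptor and feedback genes and 0 of 29 tested genes of the PI3K, AKT and mTOR list passed. The adaptors Irs1 and Irs2, which couple both receptors to PI3K, differed by -0.31 (limma adjusted p = 0.363) and -0.05 (adjusted p = 0.975). The median difference was -0.03 in each of these lists and 0.0056 over all genes.

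FoxO factors, which AKT keeps out of the nucleus when the receptors signal, had 1 of 4 called. Foxo6 gave -0.14, 0.09, 0.06 and 0.11 in aged pools 1 to 4, against 0.54, 0.33, 0.72 and 0.55 in young pools 2 to 5, without overlap. The fall was -0.50 ± 0.10 (limma adjusted p = 0.0377). It missed the threshold with median scaling (adjusted p = 0.0833), and the call was lost without any single pool other than young replicate 3 (adjusted p = 0.0653 to 0.102). Foxo1 differed by -0.24 (adjusted p = 0.166) and Foxo3 by 0.14 (adjusted p = 0.436), in both cases with no overlap in the probe used. A further Foxo1 probe, at -0.36, did not overlap either. The further Foxo3 probes, at 0.14 and 0.16, did overlap between the groups. Of the 93 pathway genes tested, 8 had every aged pool above and 7 every aged pool below, against 6.85% and 3.84% of all genes.

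Of the FoxO targets 14 of 15 were tested, 1 rose and 0 fell. Bnip3, a mitochondrial protein of mitophagy that is also a target of hypoxia signalling, gave 2.97, 2.93, 2.96 and 3.36 in aged pools 1 to 4, against 2.50, 2.37, 2.39 and 2.14 in young pools 2 to 5. The difference was 0.70 ± 0.12 (limma adjusted p = 0.0197). It lost the call without aged replicate 3, young replicate 3 or young replicate 4 (adjusted p = 0.0508, 0.0627 and 0.0534). The Igf2 mRNA-binding proteins had 2 of 3 tested and 0 called.

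**Figure D4:**
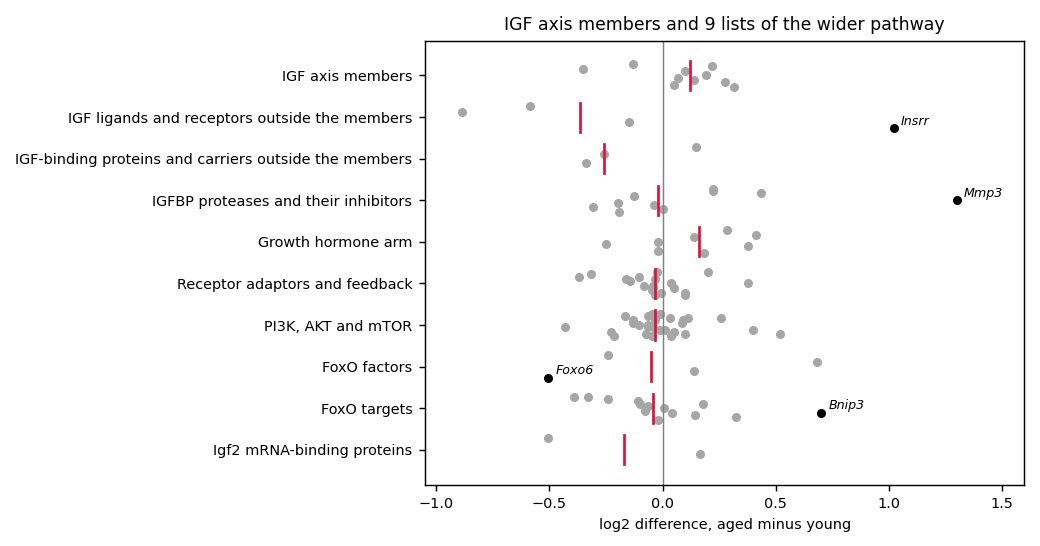
Log2 difference of aged minus young cMSCs (horizontal axis) of the 10 IGF axis genes (top row) and the 93 tested genes of 9 pathway lists. Each point is a gene, black and named where it passed the test and grey where it did not, and red lines are medians. Insrr, Mmp3 and Bnip3 lie to the right and Foxo6 to the left, and the axis members hold no black point.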

How the data were processed

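Cy3-labelled cRNA of each cMSC pool was hybridised to a one-colour Agilent SurePrint G3 Mouse GE v2 array. The authors extracted spot intensities with Feature Extraction 10.10.1.1, and the deposited intensity is the background-subtracted processed signal. A table of log2 values deposited by the authors, processed with limma per the labels, was used as an alternative only. Its centring is not stated in the sources used here.

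Control spots and spots with outlier flags (107 to 153 per array) were left out, and log2 intensities were scaled to the array's 75th percentile (472.1 to 800.7 units). Between 57.8 and 63.4% of spots were well above background and 0 were saturated. The number of arrays limits the precision. A probe was kept if all 4 arrays of at least 1 group read it well above background, and the brightest kept probe stood for a gene, which gave 20226 genes. Names came through RefSeq or Ensembl accessions (32994 probes), current symbols (10224) or the file (13387). limma 3.58.1 in R 4.3.3 (lmFit, eBayes) tested aged against young with Benjamini-Hochberg adjustment, after a check on simulated data. P-values set the difference between the groups against the spread between pools, moderated over all genes, and not against the spread between single animals. The text names all members with every probe, 10 fixed pathway genes (Igf2, Igf2r, Ghr, Irs1, Irs2, Foxo1, Foxo3, Pappa2, Stc1, Stc2), any other pathway gene that passed, and the 3 genes most like the member of smallest p, of which 1 is not reported here. The members and lists were chosen with earlier results of these data known. Alternatives were other scalings, normexp (offset 50), filters, probe summaries, blocks, weights and leaving out each pool.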

Additional observations from a re-analysis of the deposited data

Results flagged for a closer look

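A value that stood apart from the other 3 pools of its group was sought by Dixon's ratio in 64 groups of 4 pools, and 3 were found, where chance marks about 1 in 20. In the Igf1r probe at chr7:75371371-75371430, young replicate 5 was the lowest young pool, at -1.462 (ratio 0.869). In the tested probe of Pappa2, young replicate 5 was the lowest, at -3.96 (ratio 0.953). In Bnip3, aged replicate 4 was the highest aged pool, at 3.356 (ratio 0.918).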

How the results depend on the processing

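Under all 22 alternatives 0 members rose and 0 fell. Of the members' differences, 216 kept their sign and side of the threshold and 4 changed sign. Igf1 was 0.0301 with the mean of all kept probes, Igfbp6 was -0.00428 with the replicate block, and Igfbp2 was -0.00541 without aged replicate 1 and -0.00196 without young replicate 4 (highest without single pools 0.159). Of the pathway genes the text names, Irs2 was 0.066 with the replicate block and ran between -0.279 and 0.107 when single pools were left out (0.0655 without aged replicate 1, 0.0929 without young replicate 3). Pappa2 was -0.232 with the replicate block and -0.119 without young replicate 5 (highest without single pools 0.347). Among the differences of the 13 tested pathway genes that the naming rule gave, 233 kept sign and side of the threshold, 29 fell short of it, 5 passed it and 6 changed sign. With array weights Igf1 was -0.314 and Igfbp3 0.16. The causes were not tested.

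The pathway genes that rose numbered 1 with no filter on dim probes, 0 with the replicate block, 1 with the block by pool code, 5 with the trend and robust options and 1 to 3 without single pools. Those that fell numbered 2 with cyclic loess and 2 with median scaling, 0 with no filter, 0 with the replicate block, 0 with the block by pool code, 3 with array weights and 0 to 1 without single pools. These alternatives for pathway genes, and marker sums without the marker that adds most, were chosen after seeing the data. Replicate numbers 2, 3 and 4 occur in both groups, and deviations of same-numbered pools correlated at 0.18, -0.17 and -0.27. So few values cannot settle whether the numbers pair the pools. With the replicate block, which uses those 6 arrays only, 14 genes rose and 2 fell in all, against 497 and 160 without it. Over all genes, 202 rose and 43 fell with no filter, 212 and 51 with the block by pool code, 753 and 379 with array weights, and 262 to 383 and 67 to 153 without single pools. Median scaling moved the median of all genes to -0.04.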
